A study of Homo sapiens with 9 samples.

Results

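The baseline transcriptome of MEC1 cells in conventional two-dimensional (2D) culture was described from the RNA-seq libraries whose culture label was 2D, 3 of the 9 samples of the series. MEC1 is a permanent B-cell line from a patient with chronic lymphocytic leukemia (CLL), and the other samples are the same line bioprinted in a hydrogel, which were not used. The 2D cells carried no treatment or time label, their RNA came from a ReliaPrep column kit, and libraries were made by SMART-Seq v4, a full-length cDNA amplification, from 2 ng of RNA and sequenced as single reads of 100 bases. The labels call the libraries replicates 1, 2 and 3 and do not say whether they came from separate cultures, so the spread between them may be technical. The sample titles carry the letters PGK, which no label explains, so whether the line was modified is not known. They held 57152440, 85968686 and 68208856 counts assigned to genes. Values below are in the order of replicates 1, 2 and 3, and ± is the SD over n = 3.

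CLL is a disease of mature B cells that carry a surface immunoglobulin with a single light chain type, together with CD79A and CD79B, which pass the signal of that receptor to the kinases SYK, BTK and LYN. The leukemic cells usually carry CD5, CD23 (FCER2), CD200 and ROR1 beside the general B-cell protein CD20 (MS4A1), and their growth in the body depends on contact with antigen and with T cells. A line in culture divides without that contact, so the genes of the receptor, of antigen presentation, of activation and of the cell cycle were read side by side with markers of lineages that a B-cell line should lack.

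Several B-cell surface genes were abundant in all 3 samples, with CD79A at rank 106 of the 45578 symbols with a count and MS4A1 at rank 225, on the scale of RPKM, which is counts per 1000 bases of gene length scaled to the sample's total. The lineage factor PAX5 was lower, at rank 6921, and some B-cell genes such as BACH2 and BCL11A were not detected. The most abundant heavy and light chain constant genes were IGHM and IGKC. The CLL marker CD5 was near 0, with 7, 62 and 23 counts, so most but not all B-cell markers were present and the CD5 part of the CLL phenotype was not detected. Some genes of T and NK cells, above all PRF1 and TRAC, stood as high in RPKM as B-cell surface genes while CD3D had 0 counts.

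A gene was called detected where it exceeded 1 CPM, the count scaled to 1000000 assigned counts, in each of the 3 samples, which is 57.2, 85.97 and 68.2 counts. By this rule 12579 of 59050 symbols (21.3%) were detected, and 10441 of the 18617 symbols that RefSeq lists as protein-coding (56.1%). These are the shares against which the 271 detected genes among the 408 distinct genes of 25 lists are to be read. A gene was called at the floor where it had at most 3 counts in each sample, and 27401 symbols were at the floor, those without any count included. For a gene with 0 counts, 3 counts is the level that counting error allows, which is 0.0525, 0.0349 and 0.0440 CPM. Amplified reads without molecular identifiers are not independent molecules, so such floors and all intervals cover counting error only.

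Detected genes held 99.6% of all counts and had a median level of 6.98 RPKM, with quartiles of 2.21 and 22.6 RPKM. Of the detected genes, 38 reached at least 1000 RPKM and took 15.5% of the counts, and 742 lay between 100 and 1000 RPKM with 30.4%. A further 4421 genes lay between 10 and 100 RPKM with 41.5% of the counts, and 5899 between 1 and 10 RPKM with 11.6%. The most abundant 111 genes were enough for 25% of the counts, 797 for 50% and 5236 for 90%. The 10 genes with the highest CPM took 10.2%, 10.1% and 9.86% of the counts (10.04% ± 0.157). Mitochondrial genes held 2.30%, 2.81% and 2.83% and ribosomal protein genes 4.80%, 4.15% and 4.09% of the counts. Replicate 1 was the lowest of the 3 samples in mitochondrial genes and the highest in ribosomal protein genes.

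**Figure D1:**
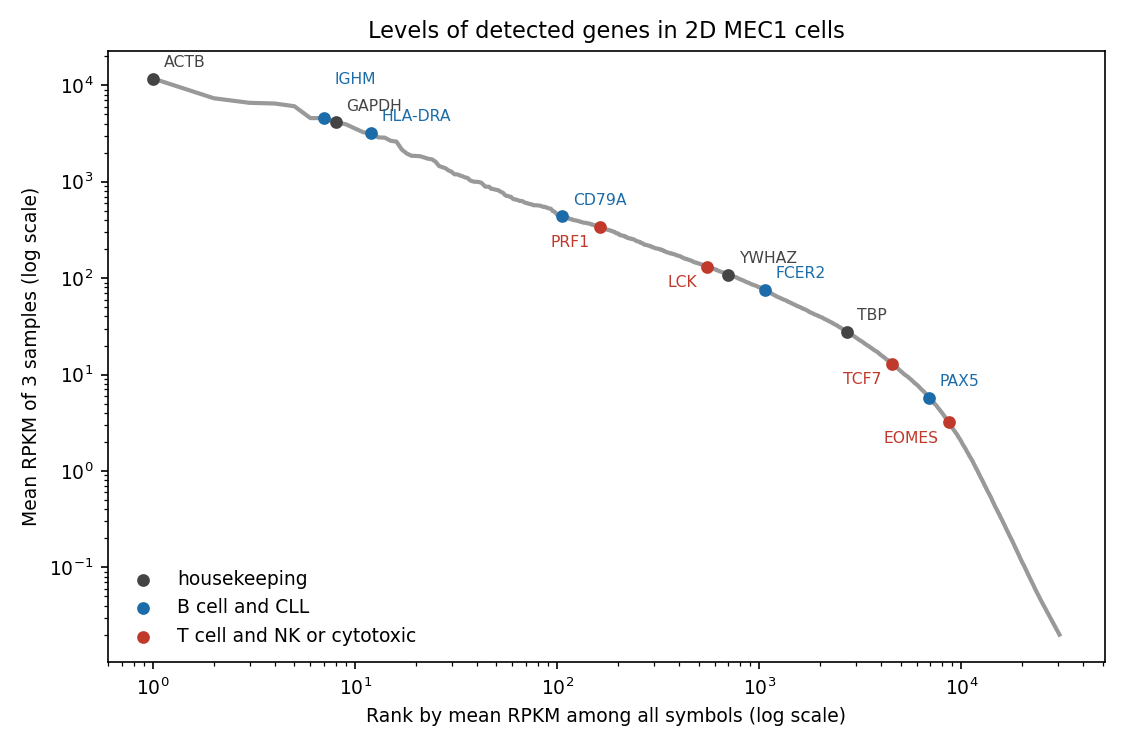
Mean RPKM over 3 samples (log scale) against rank by mean RPKM (log scale) for the 12579 detected genes, with named housekeeping, B-cell or CLL and T-cell or NK genes marked. PRF1 and LCK lie between the B-cell genes CD79A and FCER2, and PAX5 lies far down the curve at rank 6921.

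The level of a gene depends on which bases the counting step could use. All 1585 symbols whose exonic bases were entirely shared with another symbol had 0 counts, 897 of them sharing all bases on their own strand and 647 on the opposite strand. Among symbols with no shared exonic base, 22.96% had 0 counts. A low value for a gene with many shared bases is therefore uncertain, and 15 list genes shared over 50% of their exonic bases, among them CXCR5, DERL3, ELL3, TLR9, CD68 and LAT.

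Structural and metabolic housekeeping genes filled the top of the ranking. ACTB, cytoplasmic actin, was first on both scales with 11872, 12182 and 11193 RPKM. MT-RNR2, the mitochondrial large ribosomal RNA, had 6216, 7757 and 8033 RPKM. TMSB4X, thymosin beta 4, which binds actin monomers, had 7407, 6358 and 5979 RPKM. ACTB and TMSB4X, which act on the same cytoskeleton, thus stood at ranks 1 and 3. B2M, the invariant chain of MHC class I molecules, had 6852, 6364 and 6196 RPKM. FTL, the light chain of the iron store ferritin, had 6669, 5982 and 5550.2 RPKM. GAPDH, a glycolytic enzyme and a reference gene of the study's RT-qPCR, had 4285, 4285 and 3928 RPKM. Each of these 3 genes differed by little between samples beside its distance from the median gene. MT-CO2, a subunit of cytochrome c oxidase, had 3574, 4293 and 3938 RPKM. ENO1, another glycolytic enzyme, was among the 10 highest by CPM and had 2615, 2667 and 2533 RPKM. The long nuclear RNA MALAT1 was also among the 10 highest by CPM, with 5971, 6268 and 8625 CPM. Its transcript is long, so MALAT1 ranked 39 by RPKM. The remaining members of the 10 highest by CPM or RPKM were CD74, IGHM, IGKC and IGKV4-1, all genes of antigen presentation or of the antigen receptor.

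All 28 of 28 housekeeping genes were detected, with a median percentile of 95.2 among detected genes by mean RPKM. Percentile here means the share of detected genes with a lower mean RPKM. YWHAZ, a 14-3-3 protein and a further RT-qPCR reference gene, had 104, 112 and 110.2 RPKM. GAPDH thus ranked 8 and YWHAZ 702 by RPKM. The lowest housekeeping gene was POLR2A, the large subunit of RNA polymerase II, with 6.42, 6.63 and 7.11 RPKM. SDHA, a subunit of succinate dehydrogenase, had 9.14 ± 0.443 RPKM over its full length and 28.8 RPKM over the bases it shared with no other symbol. The housekeeping list therefore spanned a wide range of RPKM, from ACTB down to POLR2A near the median of detected genes.

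**Figure D2:**
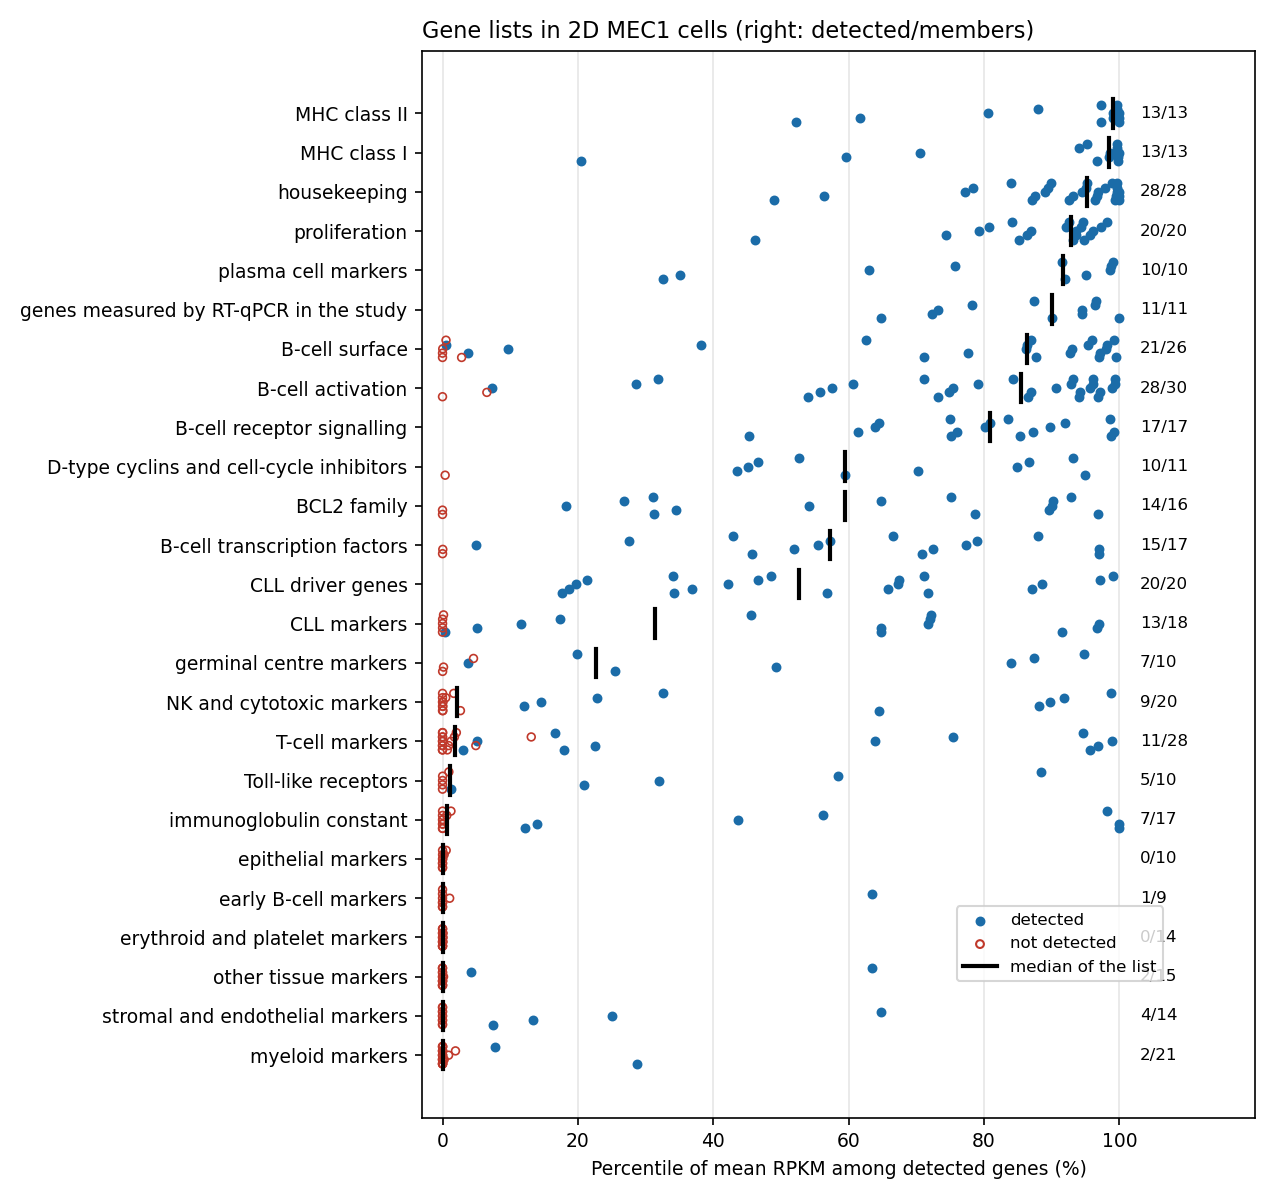
Percentile of mean RPKM among detected genes for each member of 25 gene lists, with filled points for detected and open points for undetected members, a bar at the median of each list, and the detected and total members at the right. MHC class II and class I lists lie at the top with median percentiles of 99.1 and 98.5, and lists of other lineages lie low together with early B-cell markers, immunoglobulin constant genes and Toll-like receptors at 0.00795, 0.628 and 1.06.

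Of the B-cell surface genes 21 of 26 were detected, with a median percentile of 86.3. CD52, a small glycosylphosphatidylinositol-anchored protein of lymphocytes, had 853, 692 and 644 RPKM. CD79A, the signalling chain bound to surface immunoglobulin, had 475, 437 and 401 RPKM. CD79B, its partner chain, had 154, 131 and 131 RPKM. The partners were thus unequal, with CD79B at 31.7% ± 1.55 of CD79A in RPKM. CD79B shared 22.6% of its exonic bases and CD79A none, so the size of this gap is uncertain. MS4A1, which encodes CD20, had 237, 262 and 279.5 RPKM. Replicate 3 was the highest sample for MS4A1 and the lowest for CD79A. The undetected surface genes were CD1C, CD24, CXCR5, FCRL1 and FCRL2. CD24 had 1.24, 0.454 and 1.82 CPM and missed the rule in replicate 2 only. Without replicate 2, 22 B-cell surface genes were detected. CXCR5, the receptor that guides B cells into follicles, had 9, 40 and 21 counts, but 88.6% of its exonic bases were shared and its level over the rest was 0.613 RPKM.

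B-cell transcription factors were detected in 15 of 17 cases, with a lower median percentile of 57.3. ID3, an inhibitor of E proteins such as TCF3, had 211, 165 and 163 RPKM. IRF8, an interferon regulatory factor of B and myeloid cells, had 172, 183 and 178 RPKM. POU2AF1, the coactivator that binds octamer factors at immunoglobulin promoters, had 51.7, 50.1 and 54.6 RPKM. ID3 and IRF8 were close in RPKM, ID3 being higher in replicate 1 and IRF8 in replicates 2 and 3. PAX5, the factor that holds B cells to their lineage, had 5.78, 5.59 and 5.95 RPKM. PAX5 was detected in every sample but lay below the median of detected genes, at percentile 45.7 by RPKM. By CPM it lay above their median, with a mean of 50.8 CPM against 27.4 CPM. BACH2, a repressor of plasma cell genes, and BCL11A, a factor of early lymphoid cells, were not detected. BACH2 had 0.595, 0.768 and 0.748 CPM. BCL11A had 0.157, 0.372 and 0.469 CPM.

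Every gene of B-cell receptor signalling was detected, 17 of 17, with a median percentile of 80.9. PTPN6, the phosphatase SHP-1 that restrains the receptor, had 411, 456 and 424 RPKM. BLNK, the adaptor that joins SYK to BTK and PLCG2, had 348, 357 and 352 RPKM. BLK, a Src-family kinase of B cells, had 309, 318 and 317 RPKM. These 3 genes stood above the kinases SYK, BTK and LYN. BTK, the target of ibrutinib, had 31.6, 33.5 and 32.5 RPKM. SYK had 29.8, 30.3 and 32.6 RPKM. LYN had 25.2, 25.6 and 17.3 RPKM. LYN was thus lower in replicate 3 than in the others while BTK and SYK varied little, and the lowest member, the protein kinase C gene PRKCB, had 5.66 ± 0.269 RPKM.

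**Figure D3:**
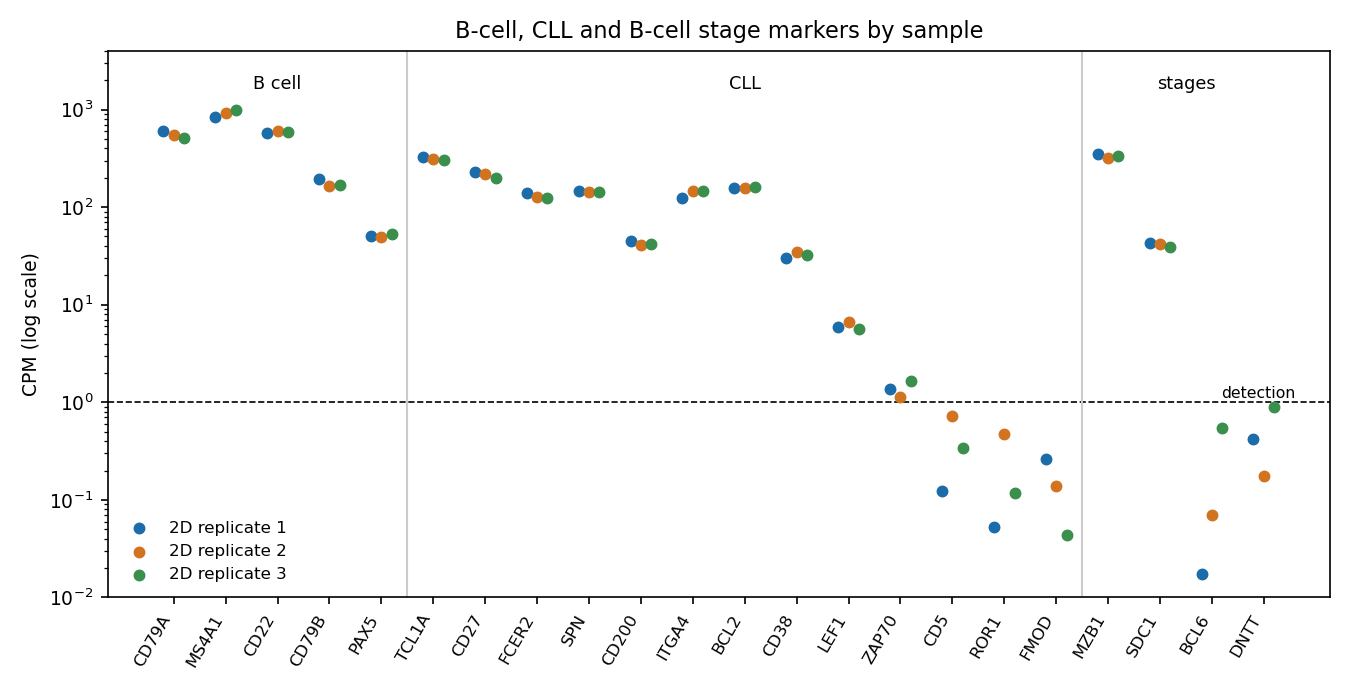
CPM (log scale) in each of the 3 samples for B-cell, CLL and B-cell stage markers, with the detection threshold of 1 CPM as a dashed line. The 3 points of a gene lie close together above 1 CPM, and CD5, ROR1, FMOD, BCL6 and DNTT fall below the threshold with wide spread.

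Immunoglobulin genes held 1.31%, 1.29% and 1.24% of all counts (1.28% ± 0.0354), and 3.13% of the RPKM summed over genes of at least 200 bases. IGHM, the constant region of IgM (chr14:105851705-105856218, minus strand, GRCh38), had 4538, 4624 and 4548 RPKM. IGKC, the kappa constant region (chr2:88857161-88857683, minus strand), had 4936, 4583 and 4193 RPKM. Heavy and light chain were thus near equal per length, with an IGKC to IGHM ratio of RPKM of 1.09, 0.991 and 0.922. IGHM made up 95.97%, 95.7% and 96.04% of heavy chain constant counts, with a 95% Wilson interval of 95.9% to 96.03% in replicate 1. IGHD, the constant region of IgD, which is spliced from the same transcript as IGHM, had 245, 267 and 244 RPKM. IGHD was 5.51% ± 0.227 of IGHM in RPKM. Constant genes of the switched classes had counts at low levels. Counts per constant gene do not show whether it was joined to a variable segment, so whether any cell had switched was not tested. IGHG3 had 24.3, 27.03 and 23.6 CPM, IgG3 being a subclass that a cell makes after class switching. IGHA1 had 7.70, 7.64 and 5.54 CPM. IGHG1 had 3.52, 2.58 and 3.14 CPM. These were the most abundant constant genes of switched classes and each was far under IGHM. IGHA2 had 1.36, 1.41 and 1.32 CPM and was the last detected constant gene. The remaining constant genes of switched classes failed the rule in at least 1 sample. IGHG2 had 26, 51 and 72 counts. IGHE had 18, 33 and 13 counts. IGHG4 had 5, 11 and 4 counts. Because the IGHG and IGHA genes resemble each other in sequence, the division of counts within each group is uncertain.

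Lambda constant genes were nearly empty among those that could be counted. IGKC took all but 2, 7 and 3 of the 147549, 206086 and 149573 light chain constant counts. IGLC1 could not add to these counts, since all of its exonic bases were shared with another symbol. IGLC2 had 2, 4 and 1 counts, and IGLL5, a surrogate-like lambda gene in the same locus, had 4, 9 and 5 counts. The 7 lambda joining segments had 0 counts in each sample, IGLJ1 with 96.1% of its exonic bases shared. Kappa thus held nearly all light chain constant counts, apart from IGLC1, which cannot be read here. Among variable segments, IGHV4-59 (chr14:106627249-106627825, minus strand) held 89.01%, 88.5% and 87.9% of IGHV counts, with a 95% Wilson interval of 88.6% to 89.4% in replicate 1. IGHV1-24 held 4.78%, 5.36% and 5.62% of IGHV counts. Of 86 IGHV symbols 9 were detected, and similar segments can exchange reads, so the minor ones are uncertain. IGKV4-1 (chr2:88885397-88886153, plus strand) had 3846, 3544 and 3288 RPKM. It held 99.6% ± 0.0422 of all light chain variable counts. It was the single detected member of 76 IGKV symbols, the runner-up IGKV2-4 having 0, 6 and 0 counts. IGKV4-1 reached 77.9% ± 0.547 of IGKC in RPKM, while IGHV4-59 reached 17.05% ± 0.443 of IGHM. IGLV6-57 was the most abundant lambda variable segment, with 329, 553 and 344 counts. It was detected at 5.76, 6.43 and 5.04 CPM, while no lambda constant gene that could be counted was. IGLV4-60 had 87, 84 and 122 counts.

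MHC class II genes, which present antigen to helper T cells, formed the list with the highest median percentile, 99.1, and 13 of 13 were detected. HLA-DRB1, a beta chain of HLA-DR, had 3415, 3258 and 3069.6 RPKM. HLA-DRA, its alpha chain, had 3317, 3237 and 3109 RPKM. CD74, the invariant chain that guards the peptide groove, had 2886, 2666 and 2416 RPKM. Alpha and beta chain thus stood side by side at ranks 12 and 11. HLA-DRB5, a paralog of HLA-DRB1 with which it can exchange reads, was at 25.6% ± 0.224 of HLA-DRB1 in RPKM. CIITA, the coactivator that switches on the whole group, had 6.27, 8.02 and 8.91 RPKM. By CPM, CIITA lay well above the median of detected genes, with a mean of 125 CPM against 27.4 CPM. All class II genes except HLA-DOB and CIITA lay above percentile 80 by RPKM, together with the peptide editors HLA-DMA and HLA-DMB.

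Genes of this group share promoter boxes, the last of which, the Y box, holds the letters CTGATTGG, so the promoters of abundant members are shown. RefSeq promoters of GRCh38.p14, from 250 bases before to 50 bases after the start, were at hand for 11 of the 13 class II members, HLA-DRA and CIITA being missing. The core ATTGG, read on both strands as ATTGG or CCAAT, occurred in 10 of the 11 and in 35.7% of 27305 promoters. The longer CTGATTGG or CCAATCAG, which contains the core, occurred in 4 of the 11, namely HLA-DRB1, HLA-DRB5, HLA-DQB1 and HLA-DMA, and in 4.16% of all promoters. MHC class I genes held the core in 6 of 10 promoters and the longer motif in 4 of 10. Housekeeping genes held them in 10 and 3 of 23, and B-cell surface genes in 7 and 0 of 18. B2M, which held both, was counted in the class I and in the housekeeping list. The 3 members with the core that had the highest RPKM are printed 5′ to 3′ on the gene's strand, with ATTGG or CCAAT in capitals: HLA-DRB1 at chr6:32589799-32590098, CD74 at chr5:150412861-150413160 and HLA-DRB5 at chr6:32530238-32530537, all on the minus strand.
HLA-DRB1: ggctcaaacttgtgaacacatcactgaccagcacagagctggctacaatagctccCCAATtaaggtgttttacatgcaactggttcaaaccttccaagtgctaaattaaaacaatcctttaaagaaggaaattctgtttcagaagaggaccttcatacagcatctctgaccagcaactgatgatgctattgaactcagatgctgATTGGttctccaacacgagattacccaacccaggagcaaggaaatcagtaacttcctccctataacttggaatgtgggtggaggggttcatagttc
CD74: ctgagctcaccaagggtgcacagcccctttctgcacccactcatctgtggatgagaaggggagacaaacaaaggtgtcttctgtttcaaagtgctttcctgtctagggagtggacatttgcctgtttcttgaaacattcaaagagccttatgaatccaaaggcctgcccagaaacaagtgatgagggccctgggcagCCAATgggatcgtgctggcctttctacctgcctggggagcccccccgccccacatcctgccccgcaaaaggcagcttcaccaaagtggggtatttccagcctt
HLA-DRB5: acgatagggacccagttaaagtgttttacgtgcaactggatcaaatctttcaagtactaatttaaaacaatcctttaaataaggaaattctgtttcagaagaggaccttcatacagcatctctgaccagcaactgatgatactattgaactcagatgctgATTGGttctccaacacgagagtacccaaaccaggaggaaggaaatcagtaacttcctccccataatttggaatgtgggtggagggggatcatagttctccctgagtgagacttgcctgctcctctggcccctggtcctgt
HLA-DRB1 holds a second match further upstream, and the stretch gatgctgATTGG is common to HLA-DRB1 and HLA-DRB5. A match is a description of letters and not a bound site, and these are reference sequences and not those of the line.

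MHC class I genes, which present antigen to cytotoxic T cells, were detected in 13 of 13 cases with a median percentile of 98.5. HLA-B had 1971, 1808 and 1794 RPKM. HLA-C had 1696, 1587 and 1547 RPKM. Both classical heavy chains thus stood under B2M, their shared light chain, whose values are given above. The lowest member was TAP2, a chain of the peptide transporter, with 1.58, 1.87 and 1.76 RPKM. Its partner TAP1 had 161 ± 5.34 RPKM.

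CLL markers were split. Of the 18 genes, 13 were detected, with a median percentile of 31.4. TCL1A, a coactivator of the kinase AKT and an oncogene in mouse models of CLL, had 185, 177 and 172 RPKM. CD27, a TNF-receptor family protein of memory B cells, had 173, 165 and 150.2 RPKM. FCER2, which encodes the low-affinity IgE receptor CD23, had 80.3, 74.6 and 72.1 RPKM. These were the 3 most abundant CLL markers and lay above percentile 90. SPN, the sialoglycoprotein CD43, had 19.7, 19.3 and 19.3 RPKM. CD200, an immunoglobulin-family ligand that restrains myeloid cells, had 20.3, 18.6 and 18.9 RPKM. ITGA4, the integrin chain CD49d, had 17.03, 19.9 and 19.95 RPKM. The levels of SPN, CD200 and ITGA4 were close to one another in RPKM. CRY1, a repressor of the circadian clock, had 13.7, 13.7 and 13.05 RPKM. BCL2, the survival protein that venetoclax binds, had 13.4, 13.4 and 13.6 RPKM. CD38, an ectoenzyme that marks aggressive CLL, had 5.30, 6.10 and 5.77 RPKM. BCL2 and CRY1 were nearly equal in RPKM, and CD38 lay under the median of detected genes by RPKM. By CPM, CD38 lay above their median, with a mean of 32.2 CPM against 27.4 CPM. BCL2 lay above CRY1 by CPM, with means of 158 and 40.3 CPM. LEF1, a Wnt-pathway transcription factor, had 1.41, 1.59 and 1.34 RPKM. ADAM29, a metalloprotease-family gene, had 0.946, 1.13 and 0.892 RPKM. ZAP70, a T-cell kinase that marks aggressive CLL, had 0.535, 0.447 and 0.644 RPKM. Each of these lay under percentile 20 and ZAP70 passed the detection rule narrowly. KSR2, a scaffold of the RAF pathway, was detected with 2.89, 2.52 and 3.61 CPM.

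The other CLL markers fell below the detection rule. CD5 (chr11:61102489-61127852, plus strand), a scavenger-receptor family protein of T cells and CLL cells, had 0.122, 0.721 and 0.337 CPM. ROR1, a receptor of WNT5A that normal mature B cells lack, had 0.0525, 0.477 and 0.117 CPM. In both genes replicate 2 was the highest. FMOD, the matrix protein fibromodulin, had 15, 12 and 3 counts. CLLU1, a CLL-specific transcript, had 14, 4 and 0 counts. LPL, lipoprotein lipase, had 0, 5 and 1 counts. The 5 undetected markers thus had some counts in at least 1 sample, none reaching 1 CPM in all 3.

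All 20 CLL driver genes, which are recurrently mutated in patients, were detected, with a median percentile of 52.7. RPS15, a protein of the small ribosomal subunit, had 502, 396 and 365 RPKM. NFKBIE, an inhibitor of NF-kappaB, had 190.1, 179 and 176 RPKM. MYD88, the adaptor of Toll-like receptors, had 50.1, 61.9 and 53.8 RPKM. The receptor NOTCH1 had the lowest mean of the list, 1.47 ± 0.227 RPKM, though not the lowest value in every sample. Levels say nothing about mutations, which counts per gene do not show.

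Early B-cell genes were mostly under the detection rule, with 1 of 9 detected. VPREB3, a protein that binds immunoglobulin chains in precursor and some mature B cells, had 15.4, 11.9 and 10.5 RPKM. DNTT, which adds bases at the joints of antigen receptor genes, had 0.420, 0.174 and 0.894 CPM. DNTT thus had counts in each sample without reaching 1 CPM. CD34, the progenitor sialomucin, had 26, 29 and 17 counts. RAG1, the recombinase, had 0, 4 and 0 counts. MME, the peptidase CD10, had 2, 5 and 0 counts. RAG1 and MME were thus close to the floor. Among germinal centre genes 7 of 10 were detected. GCSAM, an adaptor that slows germinal centre cells, had 113, 117 and 116 RPKM. STAP1, an adaptor downstream of the receptor, had 39.1, 38.5 and 41.1 RPKM. BCL6, the master repressor of the germinal centre, had 1, 6 and 37 counts and was not detected, nor were LMO2 and RGS13. GCSAM and STAP1 were thus abundant in each sample while BCL6 stayed under 1 CPM.

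All 10 plasma cell genes were detected, with a median percentile of 91.7. MZB1, a chaperone of immunoglobulin in the endoplasmic reticulum, had 425, 389 and 402 RPKM. JCHAIN, which joins IgM and IgA into polymers, had 363, 356 and 355 RPKM. XBP1, the factor of the unfolded protein response, had 320.3, 319 and 318 RPKM. JCHAIN stood at 7.83% ± 0.157 of IGHM in RPKM. SDC1, the surface proteoglycan CD138, had 12.8, 12.4 and 11.6 RPKM. PRDM1, the repressor BLIMP1 that ends the B-cell program, had 3.60 ± 0.439 RPKM. MZB1, JCHAIN and XBP1 were thus well above SDC1 and PRDM1, while DERL3, a protein of the endoplasmic reticulum, had 3.20 ± 0.228 RPKM. As DERL3 shared 87.3% of its exonic bases, its level is uncertain and was 25.1 RPKM over the rest, above SDC1.

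Of 30 activation genes 28 were detected, with a median percentile of 85.4. CCL4, a chemokine that activated B cells use to draw T cells, had 609, 569 and 531 RPKM. CD70, the ligand of CD27, had 583, 507 and 506 RPKM. CCL3, a chemokine secreted together with CCL4, had 412, 346 and 336 RPKM. Both CD70 and its receptor CD27 were therefore abundant in the same cultures. CCL3 shared 60% of its exonic bases, so its full level is uncertain and was 911 RPKM over the other bases. CCL17 and IL6 were not detected, IL6 having 0, 0 and 1 counts. Toll-like receptors were detected in 5 of 10 cases. TLR10, a receptor found mainly on B cells, had 51.2, 55.4 and 57.1 RPKM. TLR1 had 8.92, 9.99 and 10.96 RPKM. TLR6 had 2.83, 3.17 and 3.32 RPKM. TLR10 alone held 77.96% of the summed RPKM of the list, and TLR9, the sensor of CpG DNA, had 15, 17 and 11 counts with 83.5% of its exonic bases shared.

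Apoptosis regulators of the BCL2 family were detected in 14 of 16 cases, with a median percentile of 59.4. PMAIP1, the BH3-only protein NOXA, had 170.5, 174 and 168 RPKM. BCL2A1, a survival protein, had 92.3, 86.02 and 84.1 RPKM. BID, a BH3-only protein cleaved by caspases, had 68.1, 63.1 and 61.2 RPKM. By RPKM, pro-survival and pro-apoptotic genes were thus both among the most abundant members. BCL2A1 lay above BCL2 and MCL1 by RPKM, the latter at 22.8 ± 1.67 RPKM. By CPM the order of BCL2A1 and BCL2 was reversed, with means of 73.1 and 158 CPM. HRK and BOK were not detected.

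Proliferation genes were detected in full, 20 of 20, with a median percentile of 92.9. MCM7, a subunit of the replicative helicase, had 241, 257 and 265 RPKM. PCNA, the sliding clamp of DNA polymerases, had 199, 192 and 191 RPKM. CDC20, an activator of the anaphase-promoting complex, had 144, 146 and 141 RPKM. Genes of DNA replication and of mitosis thus stood together, and the marker MKI67 had 21.9 ± 1.63 RPKM. Of D-type cyclins, their kinases and inhibitors 10 of 11 were detected. CDKN1A, the inhibitor p21, had 123, 120.5 and 114 RPKM. CDK4, a partner kinase of D-type cyclins, had 95.1, 89.3 and 86.8 RPKM. CCND3, cyclin D3, had 47.5, 49.5 and 44.7 RPKM. Cyclin D3 stood above cyclin D2 at 10.4 ± 0.592 RPKM and cyclin D1 at 5.63 ± 0.665 RPKM. CDK4 shared 53.8% of its exonic bases and reached 196 RPKM over the rest.

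The genes of the RT-qPCR list were all detected, 11 of 11, with a median percentile of 90.05. HCLS1, an actin-binding substrate of antigen receptor kinases, had 156, 162 and 154 RPKM. PIM3, a survival kinase, had 166, 166 and 122 RPKM. These came next to GAPDH by mean RPKM, PIM3 being above HCLS1 in replicates 1 and 2 and below it in replicate 3. MYC, a transcription factor of cell growth, had 108 ± 4.55 RPKM, and the chemokine receptor CXCR3 had 27.5 ± 2.57 RPKM. No gene of this list was below 13.5 RPKM, the level of BCL2.

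Lists of other lineages had 28 detected members of 122 (22.95%), beside 21.3% of all symbols and 56.1% of protein-coding symbols. In bulk RNA, fewer cells of a type and less RNA per cell cannot be told apart. T-cell markers were detected in 11 of 28 cases, with a summed level of 1253, 1252 and 1126 CPM. TRAC, the constant region of the T-cell receptor alpha chain (chr14:22547506-22552156, plus strand), was the most abundant gene of the list, with 386, 366 and 354 RPKM. TRBC2, a constant region of the beta chain, had 189, 172 and 157 RPKM. TRBC1, its close paralog, had 26.02, 22.2 and 21.4 RPKM, and reads may pass between the 2 genes. The alpha and beta constant genes were thus both at levels of B-cell surface genes. LCK, a Src-family kinase of T cells that CLL cells also carry, had 128, 137 and 129.6 RPKM. TBX21, the factor T-bet, which some B cells also carry, had 118, 128 and 93.01 RPKM. TCF7, a Wnt-pathway factor, had 14.6, 12.005 and 12.2 RPKM. LCK and TBX21 lay above percentile 90 and TCF7 above the median of detected genes. IL7R, the receptor of interleukin 7, had 1.80, 1.70 and 2.26 RPKM. CD7 had 1.54, 1.45 and 1.52 RPKM. GATA3 had 1.46, 1.31 and 1.40 RPKM. These 3 genes and ZAP70, given above, lay under percentile 25. BCL11B, a factor of T-cell commitment, was the lowest detected member with 0.503, 0.295 and 0.406 RPKM. Defining markers were low. CD3E, a chain of the receptor complex, had 0.770, 1.08 and 0.630 CPM. CD3D and LAT had 0 counts in each sample, LAT with 99.04% of its exonic bases shared, and CD3G, CD8B and CTLA4 were at the floor.

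Segments of the T-cell receptor loci, chosen after their values were seen, differed between loci. The 54 TRAV symbols held 12, 83 and 7 counts and the 69 TRBV symbols 7, 54 and 21, and none was detected. The 60 TRAJ symbols held 1091, 1454 and 1336 counts, of which TRAJ12 had 433, 595 and 483. The 14 TRBJ symbols held 1127, 1585 and 1249 counts, of which TRBJ2-3 had 340, 470 and 402. TRAC itself had 21568, 30734 and 23640 counts and TRBC2 8178, 11233 and 8097 counts. In the alpha and beta loci, constant and joining genes thus had counts while variable segments had almost none, unlike the kappa locus, where IGKV4-1 came close to IGKC in RPKM. The gamma locus divided the other way. Its 14 TRGV symbols held 600, 918 and 676 counts, with 3 detected, of which TRGV3 had 195, 371 and 226. Its constant genes held 6, 13 and 23 counts and its joining segments 5, 0 and 2. In the delta locus the 3 TRDV symbols held 15, 19 and 28 counts and TRDC 52, 54 and 57, and neither was detected. The source of these counts was not tested.

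**Figure D4:**
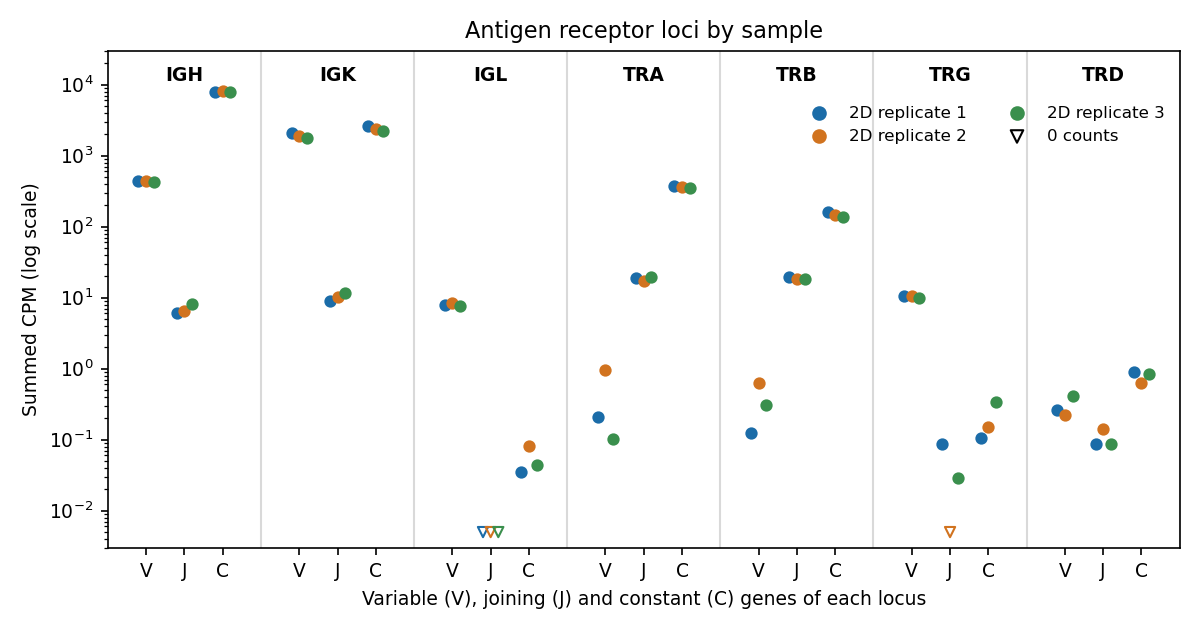
Summed CPM (log scale) of the variable, joining and constant genes of each immunoglobulin and T-cell receptor locus in the 3 samples, with open triangles for 0 counts. The heavy and kappa loci are high in variable and constant genes, TRA and TRB are high in constant genes, lower in joining genes and under 1 CPM in variable genes, and TRG is highest in variable genes.

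NK and cytotoxic genes were detected in 9 of 20 cases, with a summed level of 1099, 1095 and 1041 CPM. PRF1, the pore-forming protein perforin (chr10:70597348-70602759, minus strand), was the most abundant, with 339.7, 344 and 331 RPKM. GZMM, a granule protease, had 89.3, 76.5 and 66.9 RPKM. CST7, an inhibitor of granule proteases, had 64.4, 59.3 and 58.1 RPKM. These 3 genes lay in the upper quartile of detected genes by RPKM. NCR3, the activating receptor NKp30, had 56.1, 54.8 and 49.5 RPKM. GNLY, the membrane-lysing protein granulysin, had 14.1, 13.9 and 11.8 RPKM. EOMES, a T-box factor, had 2.98, 3.39 and 3.22 RPKM. The T-box factors TBX21 and EOMES were thus both detected, EOMES at the lower level. NKG7, a granule protein, had 1.84, 2.12 and 1.89 RPKM. KLRF1, a lectin-like receptor, had 1.37, 1.06 and 1.26 RPKM. CTSW, a cysteine protease of granules, had 1.12, 0.876 and 1.06 RPKM. Those 3 genes lay under percentile 25. The other granzymes were undetected, GZMB at the floor with 0, 3 and 0 counts, and the receptor NCR1 was at the floor as well.

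Markers of further lineages were mostly under the detection rule, apart from 8 genes. Myeloid markers had 2 of 21 detected members and a summed level of 19.2, 20.1 and 25.8 CPM. ITGAX, the integrin chain CD11c, which activated B cells can carry, was their most abundant gene with 2.31, 2.31 and 3.34 RPKM. MPEG1, a pore-forming protein of phagocytes, had 0.748, 0.699 and 0.726 RPKM. ITGAM, the integrin chain CD11b, had 0.997, 1.63 and 1.96 CPM and missed the rule in replicate 1. CD14, the defining monocyte receptor, had 24, 15 and 10 counts. LYZ, S100A8, ELANE and CD68 had 0 counts in each sample, CD68 with all of its exonic bases shared. ITGAX alone held 59.9% of the summed RPKM of the list. Erythroid and platelet markers had 0 of 14 detected members and a summed level of 0.700, 1.05 and 0.968 CPM, with the fetal globin genes HBG1 and HBG2 at 0, HBG2 with 55.6% of its exonic bases shared. Their most abundant genes by RPKM were ALAS2, an enzyme of heme synthesis, KLF1 and ITGA2B, in this order. ALAS2 had 6, 18 and 21 counts, KLF1 13, 2 and 13 counts and ITGA2B 6, 42 and 20 counts. By mean CPM, ITGA2B at 0.296 lay above ALAS2 at 0.207 and KLF1 at 0.147.

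Stromal and endothelial markers had 4 of 14 detected members and a summed level of 46.3, 44.3 and 46.2 CPM, with no member at 0. ACTA2, smooth muscle actin, was the most abundant with 15.3, 13.7 and 11.6 RPKM. PECAM1, the adhesion protein CD31, which leukocytes share, had 1.96, 2.08 and 2.58 RPKM. COL1A1, a chain of collagen I, had 1.06, 1.08 and 1.22 RPKM. PDGFRB, a growth factor receptor of pericytes, was the other detected member, with 0.853, 0.588 and 0.656 RPKM. COL1A1 was detected although its partner chain COL1A2 had 2, 17 and 4 counts. Epithelial markers had 0 of 10 detected members and a summed level of 1.31, 1.95 and 1.79 CPM. By RPKM the highest were EPCAM with 0.190 ± 0.0520 RPKM, MUC1 with 0.145 ± 0.0816 RPKM and CDH1 with 0.0719 ± 0.0389 RPKM, although by counts MUC1 with 16, 84 and 41 counts lay above EPCAM with 15, 37 and 31 counts. No epithelial marker was at 0 in all samples and KRT19 was at the floor. Markers of other tissues had 2 of 15 detected members and a summed level of 30.4, 31.1 and 26.7 CPM, with TNNT2 at 0 and 72.05% of its exonic bases shared. SNAP25, a protein of vesicle fusion, was the most abundant with 13.2, 13.3 and 10.97 RPKM. SYP, synaptophysin, had 0.341, 0.405 and 0.701 RPKM. APOA1, an apolipoprotein of the liver, had 10, 20 and 9 counts. SNAP25 alone held 94.3% of the summed RPKM of the list.

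The 3 samples were close to each other. Across the 12579 detected genes, which are not independent of one another, Pearson's r of log2 CPM was 0.994 between replicates 1 and 2, 0.989 between 1 and 3 and 0.992 between 2 and 3. The median coefficient of variation was 8.91%, from 15.4% for genes at 1 to 10 CPM to 5.14% at 100 to 1000 CPM. The chi-square per gene against counting error alone was 29.8, 56.98 and 32.1 for these pairs, in which amplification and differences between libraries cannot be told apart. Of all 12579 detected genes, 27 (0.215%), 186 (1.48%) and 116 (0.922%) differed over 2-fold in these pairs. Of 8858 genes with a mean of at least 10 CPM, 16 (0.181%) differed over 2-fold between the highest and the lowest sample. BCL3, a nuclear IkappaB protein, had 20.2, 15.97 and 7.57 CPM. AC015813.1, a gene named after a genomic clone, had 6.96, 8.21 and 15.8 CPM. RICTOR, a subunit of the kinase complex mTORC2, had 21.7, 27.2 and 47.1 CPM. BCL3 was lowest and the other 2 genes highest in replicate 3. AC126323.1 had 15.8, 23.2 and 35.6 CPM. LCMT2, a methyltransferase that modifies tRNA, had 6.81, 10.6 and 14.7 CPM. Both were likewise highest in replicate 3.

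Part of the difference between samples followed gene length. The Spearman correlation across genes of length with the difference of log2 CPM was 0.25 for replicate 2 minus 1, 0.33 for 3 minus 1 and 0.19 for 3 minus 2. For replicate 3 minus 1, the median difference went from -0.07 in the shortest group of genes to 0.20 in the longest. Short genes were thus relatively higher in replicate 1, and the cause was not tested. Whether the higher share of ribosomal protein genes in replicate 1 goes with their length was not tested either.

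**Figure D5:**
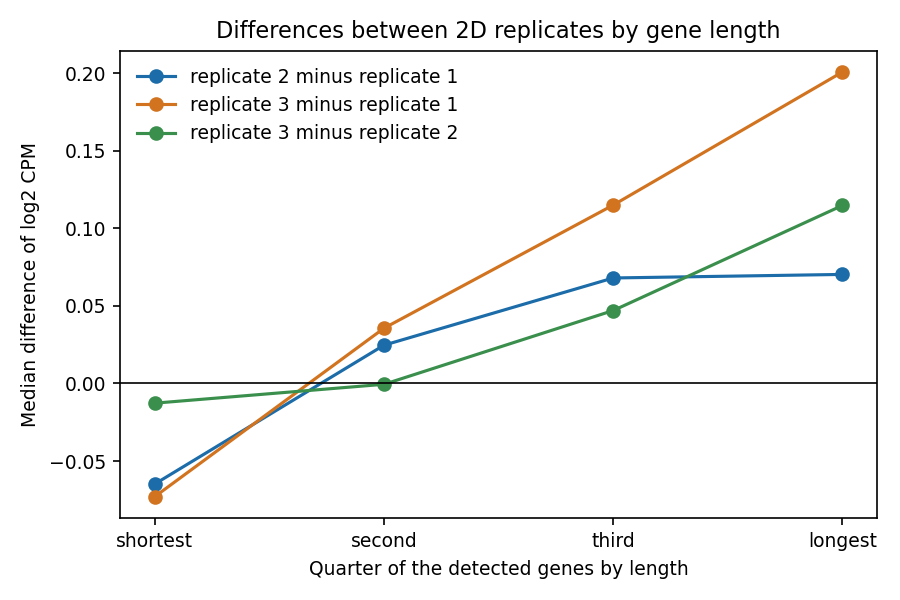
Median difference of log2 CPM between 2D replicates in 4 equal groups of detected genes by length. All 3 lines lie higher for the longest genes than for the shortest, and replicate 3 minus replicate 1 has the widest range, from -0.07 to 0.20.

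Replicate 2 had more symbols with few counts. Symbols with a count numbered 29774, 42082 and 31890, and at the depth of replicate 1 the numbers for replicates 2 and 3 would be 39547 and 31128. Olfactory receptor genes, chosen after their values were seen and silent in most cells outside the nose, had a count in 177, 564 and 183 of 845 symbols. The name rule for these symbols also takes pseudogenes, and the numbers are not scaled for depth. Their summed level, which is scaled for depth, was 41.9, 56.7 and 41.7 CPM, again highest in replicate 2. Values under 1 CPM in replicate 2, among them those of CD5, ROR1 and the TRAV segments, stand beside this excess, whose part in them was not tested. Symbols above 1 CPM numbered 12939, 13116 and 13470, so the excess of replicate 2 did not extend to symbols above 1 CPM.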

How the data were processed

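Single reads of 100 bases from the 3 libraries of 2D MEC1 cells were used; the bioprinted samples were left out. By their notes, the authors used Trimmomatic 0.39 for trimming, STAR 2.5.3a for alignment against GRCh38 and featureCounts 1.6.4 for assignment to genes of GENCODE release 31. The deposited table holds counts per gene, with positions and lengths. Strand and multimapping settings are not stated. CPM was the count scaled to the sample's total assigned counts, and RPKM was CPM per 1000 bases of the table's length. Shared exonic bases were computed from the table's own coordinates. Detection asked for CPM above 1 in all 3 samples and the floor was 3 counts. Shares have 95% Wilson intervals. No test between groups was possible in 1 group. Python 3.11.15, pandas 2.3.3, numpy 2.4.6, scipy 1.17.1 and matplotlib 3.10.9 were used, with edgeR 4.0.16 for dispersion and TMM factors and DESeq2 1.42.0 for size factors under R 4.3.3. The code was checked and tested on simulated data.

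The members and lists were chosen with earlier results of these data known. Named with values were the 3 members of highest mean RPKM in every list, defining markers, detected members of lists of other lineages, all CLL markers, immunoglobulin constant genes above the floor, the 2 most abundant segments each of IGHV, IGKV and IGLV, the 10 genes of highest mean CPM and of highest mean RPKM (length of at least 200 bases), the 5 genes with the largest ratio between replicates at a mean CPM of at least 10, and the RT-qPCR reference genes. Defining markers included MS4A1, CD79A, CD79B, PAX5, CD5, FCER2, CD3E, CD14, LYZ, SDC1, MME, RAG1 and DNTT; some genes that the rule takes are not reported here. Other genes, such as BTK, SYK, LYN and POLR2A, were named after their values were seen. Alternatives covered thresholds, scaling, totals, shares per base, percentiles and leaving out each replicate.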

Additional observations from a re-analysis of the deposited data

How the results depend on the processing

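The count of detected genes lay between 9878 (CPM above 5) and 13968 (CPM above 0.5) around 12579 under all alternatives, and that of detected list memberships, 281 of 418 with genes in several lists counted in each, between 255 and 288. At CPM above 5, detected T-cell markers were 7 in place of 11, germinal centre markers 4 in place of 7, and myeloid and other tissue markers 1 each in place of 2; at RPKM above 1 the last 2 lists also had 1 each. As shares of summed RPKM, the 10 most abundant genes held 13.3% and immunoglobulin genes 3.13%. With totals without mitochondrial genes, the 10 most abundant genes held 9.55%. Per base of length, the share of IGHM was 94.4%, that of IGHV4-59 85.8% and that of IGKV4-1 among light chain variable segments 99.4%, while the kappa share moved by less than its SD. The median over lists of the median percentile was 52.7, and 55.4 by CPM; the largest change by CPM was in B-cell transcription factors, from 57.3 to 73.7. The median coefficient of variation was 7.24% at a mean CPM above 10. Causes were not tested.

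Leaving out each replicate in turn gave a median percentile over lists of 52.1 to 54.3 and a median coefficient of variation of 6.30% to 9.17%. Very low list medians moved more in proportion. That of Toll-like receptors went from 1.06 to 1.68 without replicate 3 and to 6.98 by CPM. That of early B-cell markers fell to 0 without replicate 2 or 3, and that of immunoglobulin constant genes to 0 by CPM. An alternative chosen after seeing the data, RPKM per base of unshared exon, raised germinal centre markers from 22.7 to 35.96. Another such alternative, members with at most 50% of exonic bases shared, lowered the detected members of 7 lists by at most 1. No paired analysis was possible because the samples form 1 group. With 3 samples of 1 group, levels under 1 CPM rest on few counts and are the least certain, and the replicates may not cover variation between cultures.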
